A study of Mus musculus with 12 samples.

Results

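The mRNAs of the cytosolic ribosomal proteins were measured by RNA-seq in mouse tail tip fibroblasts of 3 Hotair genotypes. They were taken as every gene row whose symbol starts with Rpl, Rps or Rplp followed by a number, leaving out 6 pseudogene rows and 10 rows of the ribosomal protein S6 kinases. The rule found 85 of 24132 gene rows, of which 52 are named for the large subunit and 33 for the small subunit. Of the 85, 9 are not core ribosomal proteins. Among these, 8 are paralogs of another member (Rpl3l, Rpl7l1, Rpl10l, Rpl22l1, Rpl36al, Rpl39l, Rps27l and Rps4y2, which RefSeq lists as Rps4l, a transcribed pseudogene), and Rps19bp1 encodes a binding protein of Rps19. The remaining 76 genes, 46 of the large and 30 of the small subunit, encode core proteins of the ribosome. All but Rpl3l and Rpl10l reached 1 RPKM (reads scaled to transcript length and sequencing depth) in at least 2 of the 6 libraries, so 83 genes were tested.

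The cytosolic ribosome consists of a small subunit, which decodes the mRNA, and a large subunit, which joins amino acids, and each holds ribosomal RNA and 1 copy of most of its proteins. Ribosomal protein genes are among the most transcribed genes of growing cells. Their mRNAs start with a run of pyrimidines, the terminal oligopyrimidine (TOP) tract, through which mTOR signalling sets how well they are translated. In mice, mutations of single ribosomal protein genes give restricted phenotypes of the skeleton, tail or pigment, and the Rpl38 mutant Tail short shows homeotic changes of the vertebrae with altered translation of Hox mRNAs.

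Hotair is a long non-coding RNA transcribed from the HoxC cluster. Polyadenylated RNA was compared between fibroblasts that the labels call Hotair knockout (KO, n = 2 libraries), Hotair heterozygous (HET, n = 2) and Hotair wildtype (WT, n = 2). The cells came from the tail tips of newborn mice on a C57BL6 background reached by backcrossing, so DNA around Hotair may still differ between genotypes. ChIP-seq samples of the same series are not analysed here.

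Hotair was listed at 0 RPKM in both KO libraries, against 0.213 and 0.172 RPKM in HET and 0.247 and 0.183 RPKM in WT libraries. A count of 3 reads over both KO libraries, which a value of 0 allows, would correspond to 0.0287 RPKM, a limit that covers counting error only. The depth recovered from the values was 48.1M and 46.0M reads in KO, 33.2M and 31.2M in HET and 29.6M and 27.9M in WT libraries, so KO was the deepest group. All 10 fibroblast markers (Col1a1, Col3a1, Vim and others) lay above 1 RPKM in every group, and their sum was lowest in KO, at 4256 and 4289 RPKM, against 4659 and 4755 RPKM in HET and 5103 and 5115 RPKM in WT libraries. Vim weighed most in this sum (means of 2157 RPKM in KO, 2345 RPKM in HET and 2678 RPKM in WT), and single markers went both ways. Against WT, 3 of the 10 were called higher and 6 lower in KO (40.6% and 26.6% of all genes tested), and 5 higher and 3 lower in HET (35.5% and 17.1%). The keratinocyte markers Krt14 and Cdh1 and the endothelial markers Pecam1 and Cdh5 stayed under 0.1 RPKM. Summed markers of 4 other kinds differed between genotypes. Summed macrophage markers (8 genes, among them Cd68, Lyz2 and Tyrobp) reached 49.96 and 50.35 RPKM in KO, 6.52 and 5.85 RPKM in HET and 8.63 and 7.08 RPKM in WT libraries, with the leukocyte gene Ptprc under 0.1 RPKM throughout. Summed markers of dividing cells (6 genes, among them Mki67 and Top2a) reached 22.02 and 22.22 RPKM in KO, 15.8 and 15.9 RPKM in HET and 12.6 and 13.0 RPKM in WT libraries. Summed Schwann cell markers (4 genes) lay at 13.6 and 14.1 RPKM in KO, 30.4 and 29.8 RPKM in HET and 24.9 and 24.9 RPKM in WT libraries. Summed skeletal muscle markers (4 genes, with the muscle regulators Myod1 and Myog under 0.1 RPKM throughout) lay at 161 and 162 RPKM in KO, 163 and 159 RPKM in HET and 245 and 246 RPKM in WT libraries. Nearly all of this sum was Acta1, with means of 159 RPKM in KO, 160 RPKM in HET and 244 RPKM in WT. Des, the other muscle marker tested, was highest in KO (means of 3.01 RPKM in KO, 0.815 RPKM in HET and 1.14 RPKM in WT). The part of these 4 marker groups, and of the lower fibroblast sum, in the results on ribosomal protein mRNAs was not tested. In these bulk samples, a change in how many cells of a type were present and a change in RNA per cell cannot be told apart. No label says that the 2 libraries of a genotype came from separate animals or cultures, so the p-values measure the spread between these libraries only, which may be technical. Over all genes with enough reads, the robust variance between the 2 libraries was 0.873 times that of counting noise in KO, 0.876 times in HET and 0.813 times in WT. For the typical gene, the 2 libraries of a genotype thus differed no more than read counting alone would give.

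Some sequence features that the symbol rule did not use were more frequent at the starts of these genes than over all promoter entries, each in a minority of them. RefSeq (GRCm38.p6) held a promoter window, 250 bases before to 50 bases from the start, for 64 of the 85 genes. A run of at least 8 C or T letters lay within 15 bases before to 15 bases from the listed start in 25 of the 64 windows (39.1%), against 11.9% of all 27025 promoter entries. The opposite run, at least 8 A or G letters, was found in 2 of the 64 (3.13%), against 12.9% of all entries. The C/T run was found in 16 of 40 large subunit genes (40%) and in 9 of 24 small subunit genes (37.5%). The letters CCGGAAG, the core of ETS-factor motifs, occurred on either strand of the 300 bases in 24 of 64 windows (37.5%), against 9.12% of all entries. CTCTTTC, on either strand, occurred in 17 of 64 (26.6%, against 8.01%), and CACGTG, the E-box that MYC binds and which reads the same on both strands, in 5 of 64 (7.81%, against 7.24%). Searched motifs may overlap the C/T run. A match is a description of these letters and not a bound site. The start windows below belong to genes whose mRNA differed most between genotypes or that are discussed by role, and capitals mark the longest C/T run in each.
Rps24, chr14:24490663-24490692, plus strand: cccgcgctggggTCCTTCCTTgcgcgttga
Rpl36a, chrX:134585639-134585668, plus strand: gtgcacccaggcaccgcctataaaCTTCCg
Rplp2, chr7:141447636-141447665, plus strand: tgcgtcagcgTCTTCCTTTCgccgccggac
Rpl38, chr11:114668565-114668594, plus strand: agcggaagcctcgTTCTTTCCCCgttctct
Rpl34, chr3:130730384-130730413, minus strand: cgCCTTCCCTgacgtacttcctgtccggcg
Rpl13a, chr7:45128731-45128760, minus strand: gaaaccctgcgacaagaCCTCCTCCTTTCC
Rpl18, chr7:45718056-45718085, plus strand: tgcgtctcgcaggccgCTCTTTCCCCgccc

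The genes were spread over 19 chromosomes, with 14 of them on chromosome 7. They were among the most abundant mRNAs of these cells. Averaged over the 6 libraries, 73 of the 85 reached at least 100 RPKM, a level reached by 425 of all 24132 rows, and 37 of the 100 most abundant rows were cytosolic ribosomal protein genes. Core large subunit genes ranged from 6.54 to 1830 RPKM, with a median of 360 RPKM, and core small subunit genes from 30.9 to 790.0 RPKM, with a median of 368 RPKM. The highest means belonged to Rplp1, of the stalk that recruits elongation factors (1830 RPKM), Rpl41, the smallest ribosomal protein (1735 RPKM), Rplp0, the base of the stalk (1380 RPKM), Rps26, which lines the mRNA exit channel (790.0 RPKM), and Rpl12, which binds next to the stalk (748 RPKM). The lowest means among the genes tested belonged to Rpl39l, Rpl21, Rps19bp1, Rpl7l1 and Rps4y2. Rpl39l lay between 2.56 and 6.06 RPKM, Rps19bp1 between 16.4 and 19.3 RPKM, Rpl7l1 between 19.4 and 24.9 RPKM and Rps4y2 between 20.8 and 45.1 RPKM. The striated-muscle paralog Rpl3l and the testis paralog Rpl10l stayed at or below 0.0940 RPKM in every library. The median member held 4288 to 8763 read equivalents per library. Core proteins stand in nearly equal number in a ribosome, whereas these RPKM values spread widely. Many ribosomal protein genes have near-identical processed pseudogenes. No source used here says how reads with several matching places were assigned, so single levels are uncertain.

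As deposited, and as a share of all gene rows, the summed level of the cytosolic ribosomal protein mRNAs was highest in KO libraries, intermediate in HET and lowest in WT. As a share of the RPKM summed over all gene rows, the 85 genes took 12.1% in both KO libraries, 11.3% and 11.2% in the HET libraries and 10.6% in both WT libraries. The libraries of a genotype lay close together and the 3 genotypes did not overlap. The share was 14.2% higher in KO than in WT, 6.38% higher in HET than in WT and 7.31% higher in KO than in HET. With 2 libraries against 2, no exact permutation test of a single value can reach 0.05, so the shares are given with their spread only. As RPKM sums without rescaling, the 85 genes reached 34258 ± 66.4 RPKM in KO, 31714 ± 136 RPKM in HET and 30793 ± 21.3 RPKM in WT (SD, n = 2 each), 11.3% more in KO and 2.99% more in HET than in WT. Without the 2 most abundant members, Rplp1 and Rpl41, the sum was still 9.96% higher in KO and 4.15% higher in HET than in WT. The order of HET and WT depended on the scaling. Scaling to equal medians multiplies KO libraries by 0.981 and 0.981, HET libraries by 0.992 and 0.976 and WT libraries by 1.035 and 1.0375. The sums of the 85 genes in HET then lie below those in WT, with KO still highest.

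Both subunits took part. Large subunit genes made up 7.51% ± 0.00959 of the summed RPKM in KO, 6.95% ± 0.0145 in HET and 6.58% ± 0.00083 in WT (SD, n = 2 each). Small subunit genes made up 4.55% ± 0.00586 in KO, 4.29% ± 0.00317 in HET and 3.98% ± 0.0011 in WT. The ratio of the large to the small subunit sum was 1.65 and 1.66 in KO, 1.62 and 1.62 in HET and 1.65 and 1.65 in WT libraries. KO and WT therefore differed in both sums by nearly the same factor, 14.2% for the large and 14.1% for the small subunit share, while in HET the ratio lay 1.83% below that of WT. The median level gave another order. The median over large subunit genes was 375 ± 0.684 RPKM in KO, 348 ± 0.365 RPKM in HET and 348 ± 2.49 RPKM in WT, and over small subunit genes 408 ± 2.62 RPKM in KO, 368 ± 1.76 RPKM in HET and 354 ± 1.95 RPKM in WT. Both medians were taken over core genes. The ratio of the large to the small subunit median was thus lowest in KO, at 0.920, against 0.944 in HET and 0.985 in WT. Mitochondrial ribosomal protein genes (76 rows), whose products build the separate ribosome of mitochondria, took 0.513% ± 0.000228 of the summed RPKM in KO, 0.517% ± 0.00258 in HET and 0.509% ± 0.00121 in WT. The cytosolic sum was 23.5 times the mitochondrial sum in KO, 21.8 times in HET and 20.8 times in WT.

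**Figure D1:**
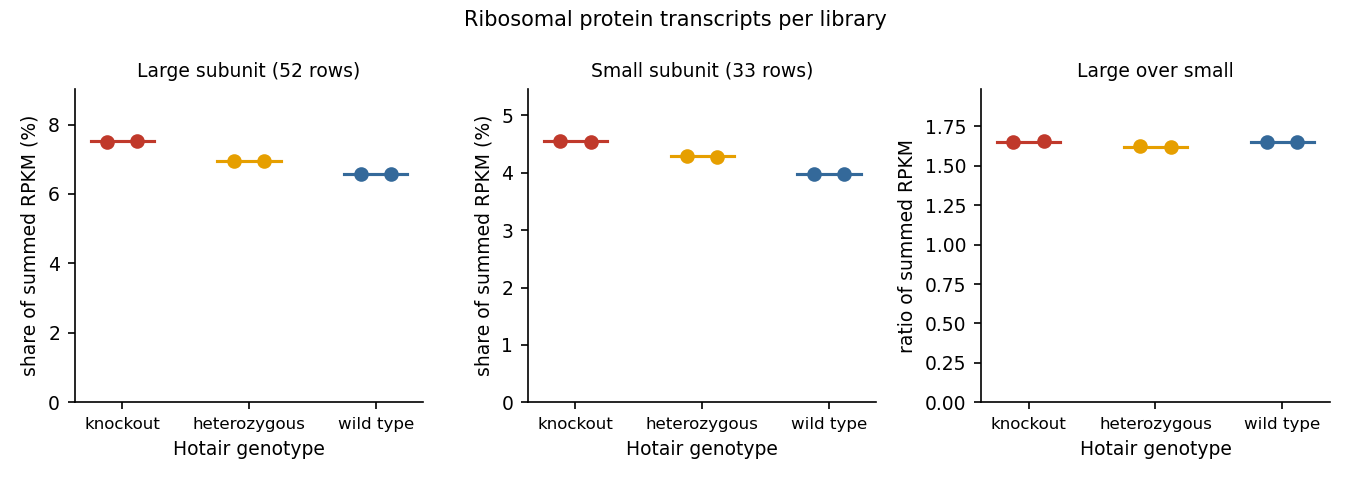
Share of the RPKM summed over all gene rows (%, axes from 0) taken by large subunit (52 rows) and small subunit genes (33 rows), and the ratio of the large to the small subunit sum, by genotype. Each point is 1 library and each line the mean of the 2 libraries. Both shares were highest in KO (7.51% and 4.55%), lower in HET (6.95% and 4.29%) and lowest in WT (6.58% and 3.98%), while the ratio lay between 1.62 and 1.66 in all libraries.

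Gene by gene, most cytosolic ribosomal protein mRNAs were higher in KO than in WT by a small amount. A gene was called when the Benjamini-Hochberg adjusted p of limma on log2(RPKM + 1), over all 10897 genes tested, was under 0.05. Of the 83 genes tested, 58 rose, 13 fell and 12 were not called. Over all genes tested, 67.2% were called in this comparison, 40.6% higher and 26.6% lower. The share called among ribosomal protein genes, 85.5%, was near that of the other 352 genes with at least 100 RPKM, 87.8%. The directions of those calls differed: 81.7% of the ribosomal protein calls were higher in KO, against 29.1% among the other abundant genes (90 higher, 219 lower). The libraries of KO lay entirely above those of WT in 61 ribosomal protein genes and entirely below in 14, against 49.3% and 34.5% of all genes tested (83.8% in either direction). The median log2 difference was 0.13 over the 83 genes, 0.06 over all genes tested and -0.14 over the other abundant genes. Only 28 of the 83 genes were more than 0.26 higher on the log2 scale, about 1.2-fold, and 3 were as much lower.

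In KO against WT, rises outnumbered falls in both subunits. Of 50 large subunit genes tested, 36 rose and 7 fell, with a median log2 difference of 0.16. Of 33 small subunit genes tested, 22 rose and 6 fell, with a median of 0.10. The quartiles ran from 0.06 to 0.38 in the large and from 0.01 to 0.35 in the small subunit, so the spread within each subunit was far wider than the distance between their medians. Among core genes alone, 34 of 46 large subunit genes rose and 6 fell (median 0.17), and 20 of 30 small subunit genes rose and 6 fell (median 0.09).

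**Figure D2:**
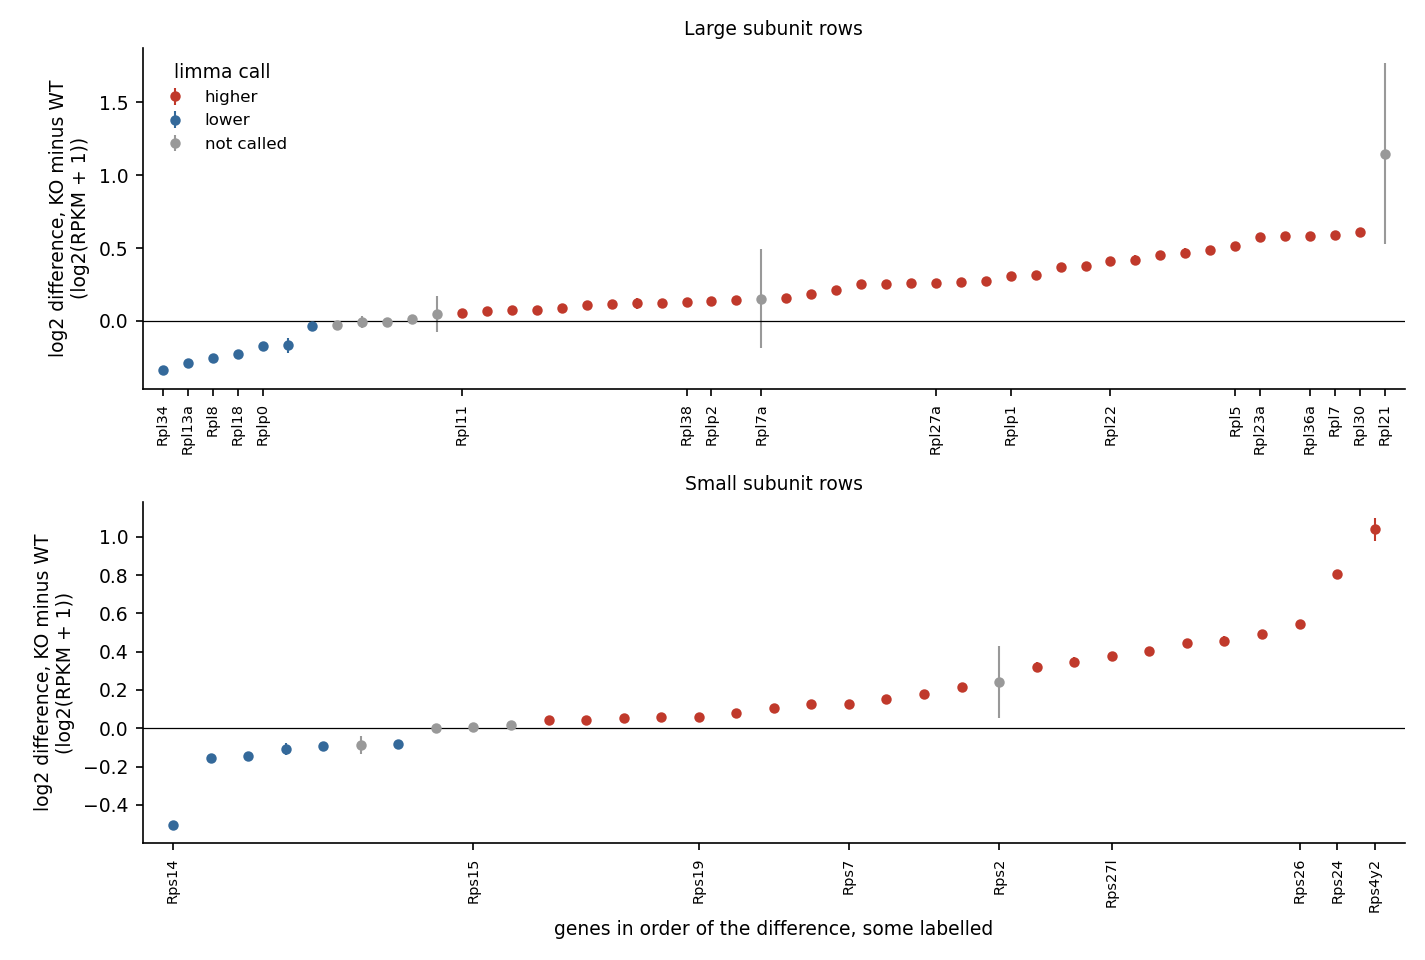
Log2 difference of KO minus WT on the log2(RPKM + 1) scale for each tested large subunit gene (upper panel, 50 genes) and small subunit gene (lower panel, 33 genes), in order of the difference, with some genes labelled. Points are estimates, vertical lines their SE, often smaller than the point, and colours give the limma call. In both panels most points are called higher (36 and 22), and Rpl21, Rpl7a and Rps2 have wide errors and are not called.

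The largest rise of a core gene in KO was that of Rps24, a small subunit protein that human cells need for processing of the ribosomal RNA precursor. Rps24 had 463 and 455 RPKM in KO, 299 and 299 RPKM in HET and 264 and 261 RPKM in WT libraries. KO stood apart, and HET lay above WT by 0.19 on the log2 scale. The log2 difference of KO to WT was 0.80 ± 0.01 (SE; adjusted p = 3.3e-08). Rpl30, a large subunit protein, had 252 and 253 RPKM in KO, 178 and 186 RPKM in HET and 163 and 168 RPKM in WT libraries, a log2 difference of 0.61 ± 0.02 (adjusted p = 1.2e-06). Rpl7 had 217 and 219 RPKM in KO, 177 and 178 RPKM in HET and 144 and 145 RPKM in WT libraries, and rose by 0.59 ± 0.02 (adjusted p = 1.8e-07). In Rpl30 and Rpl7, as in Rps24, the 3 genotypes did not overlap and HET lay between KO and WT. Rpl36a, with the shortest C/T run of the printed windows, had 212 and 203 RPKM in KO, 177 and 177 RPKM in HET and 140 and 137 RPKM in WT libraries, a log2 difference of 0.58 ± 0.02 (adjusted p = 9.1e-07). The largest fitted change among called genes was that of the paralog row Rps4y2, at 42.6 and 45.1 RPKM in KO, 25.8 and 29.8 RPKM in HET and 20.8 and 20.8 RPKM in WT libraries, a log2 difference of 1.04 ± 0.06 (adjusted p = 7.4e-06).

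A smaller set of abundant members fell. Rps14, a small subunit protein near the decoding platform, had 235 and 235 RPKM in KO, 247 and 246 RPKM in HET and 330 and 337 RPKM in WT libraries. Both mutant genotypes lay well below WT, and the log2 difference of KO to WT was -0.50 ± 0.01 (adjusted p = 3.5e-07). Rpl34 had 149 and 154 RPKM in KO, 131 and 135 RPKM in HET and 191 and 191 RPKM in WT libraries, a log2 difference of -0.34 ± 0.02 (adjusted p = 1.5e-05). Rpl13a, which also has a role in translational control by interferon in human monocytes, had 604 and 613 RPKM in KO, 594 and 599 RPKM in HET and 742 and 744 RPKM in WT libraries, a log2 difference of -0.29 ± 0.01 (adjusted p = 9.8e-07). For these 2 genes HET lay lowest. Rpl8, near the peptidyl transferase centre, had 670 and 680 RPKM in KO, 742 and 757 RPKM in HET and 803 and 810 RPKM in WT libraries, and Rpl18 had 362 and 369 RPKM in KO, 398 and 408 RPKM in HET and 426 and 430 RPKM in WT libraries. Rpl8 fell by 0.26 on the log2 scale and Rpl18 fell by 0.23, with no overlap between the genotypes. A C/T run of at least 8 was found in 18 of the 44 genes with a window that rose and in 5 of the 9 that fell, and CCGGAAG in 20 of the 44 and 1 of the 9. With 9 genes, these shares are a description only.

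The 12 genes not called in KO against WT included Rpl7a, Rpl15, Rpl17, Rpl21, Rpl27, Rpl39l, Rps2, Rps13, Rps15, Rps19bp1 and Rps28. In Rpl7a, Rpl21 and Rps2 the replicates lay far apart. Rpl21 had 8.72 and 10.3 RPKM in KO, 8.95 and 2.20 RPKM in HET and 7.41 and 1.65 RPKM in WT libraries, and its log2 difference of 1.149 ± 0.619 had an adjusted p of 0.14. Rpl7a had 37.2 and 54.2 RPKM in KO, 88.0 and 43.1 RPKM in HET and 49.9 and 32.5 RPKM in WT libraries. Rps2 had 141 and 141 RPKM in KO, 181 and 138 RPKM in HET and 146 and 96.8 RPKM in WT libraries. These 3 genes, and no other ribosomal protein gene, differed between replicates by more than 4 SD of counting noise in at least 1 genotype. Rpl15, by contrast, had close replicates, at 300 and 299 RPKM in KO, 320.4 and 320.5 RPKM in HET and 298 and 296 RPKM in WT libraries.

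**Figure D3:**
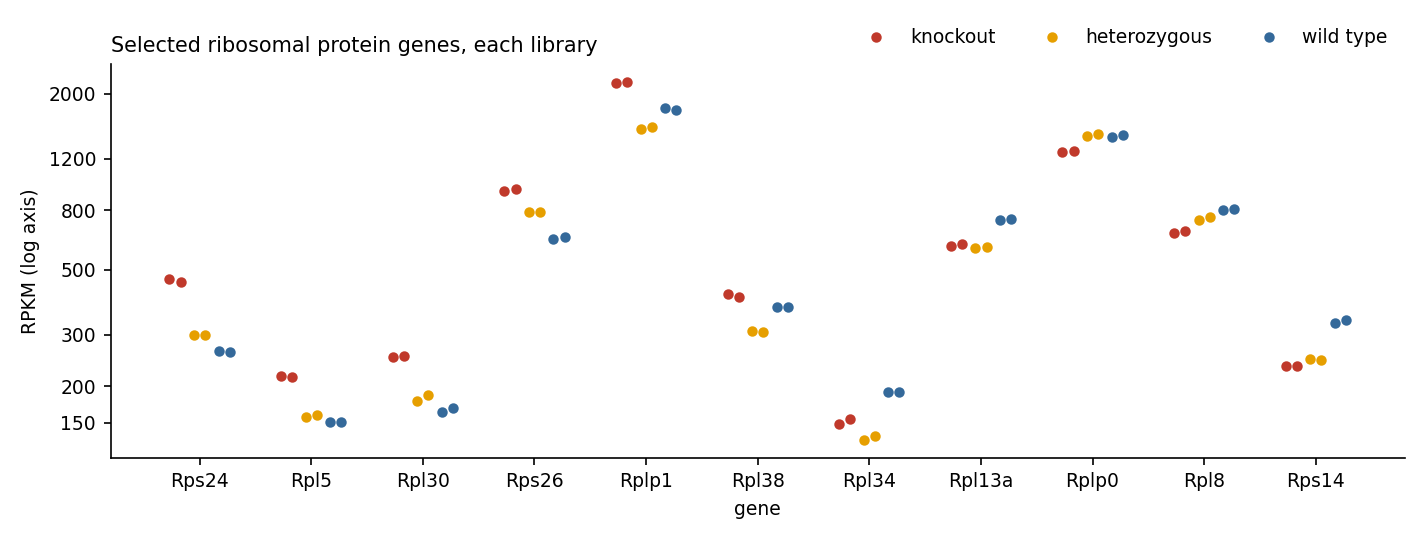
RPKM per library on a log axis for selected ribosomal protein genes, 1 point per library, coloured by genotype. Rps24, Rpl5, Rpl30 and Rps26 were highest in KO, Rplp1 and Rpl38 lowest in HET, Rpl34, Rpl13a and Rps14 highest in WT, Rplp0 lowest in KO, and Rpl8 lowest in KO and highest in WT.

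HET libraries were compared with the same WT libraries, so the values of this comparison are not independent of those of KO against WT. Of the 83 genes tested, 52 rose in HET, 17 fell and 14 were not called. Over all genes tested, 52.6% were called in this comparison, 35.5% higher and 17.1% lower. HET libraries lay entirely above WT in 56 ribosomal protein genes and entirely below in 19, against 50.4% and 25.6% of all genes tested (76.0% in either direction). Large subunit genes had 31 rises and 10 falls with a median log2 difference of 0.09, and small subunit genes had 21 rises and 7 falls with a median of 0.08. As deposited, the median over all genes tested was 0.07 and that over the other 352 abundant genes was -0.07 (91 higher, 193 lower). Called in either direction were 83.1% of the ribosomal protein genes and 80.7% of those 352 genes.

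The largest rises in HET were those of Rpl39l (log2 difference 0.67 ± 0.12, adjusted p = 0.0035), Rpl29 (0.63 ± 0.03, adjusted p = 9.5e-06), Rpl23a (0.43), Rps4y2 (0.40) and Rpl36a (0.36). Rpl29, a large subunit protein, had 122 and 115 RPKM in KO, 141 and 134 RPKM in HET and 89.6 and 86.8 RPKM in WT libraries, so HET lay above KO. Rpl23a, at the exit of the peptide tunnel, had 826.2 and 825.5 RPKM in KO, 745 and 752 RPKM in HET and 554 and 555 RPKM in WT libraries, both mutant genotypes standing well above WT. The largest falls were those of Rpl34 (-0.52 ± 0.02, adjusted p = 4.2e-06), Rps14 (-0.43), Rpl13a (-0.32), Rpl38 (-0.28) and Rps15 (-0.23). Rps15, a small subunit protein, had 692 and 672 RPKM in KO, 580.1 and 576 RPKM in HET and 665 and 693 RPKM in WT libraries. KO and WT overlapped for Rps15, and HET lay below both.

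KO was compared with HET as well, with the KO and HET libraries that also enter the comparisons to WT. Here 50 of 83 ribosomal protein genes rose in KO, 24 fell and 9 were not called. Over all genes tested, 51.8% were called, 26.4% higher and 25.4% lower. The share called among ribosomal protein genes, 89.2%, was nearer that of the other 352 genes with at least 100 RPKM, 81.0%. Of those 352 genes, 103 were higher and 182 lower in KO, with a median of -0.06. KO libraries lay entirely above HET in 52 ribosomal protein genes and entirely below in 26, against 39.2% and 38.6% of all genes tested (77.8% in either direction). Large subunit genes had 31 rises and 13 falls (median log2 difference 0.10) and small subunit genes 19 rises and 11 falls (median 0.07), while the median over all genes tested was at -0.00142. The largest rises were those of Rps4y2 (0.64), Rps24 (0.62), Rplp1 (0.51), Rpl35a (0.48) and Rpl30 (0.47). Rpl35a had 183 and 188 RPKM in KO, 130.2 and 135 RPKM in HET and 133 and 131 RPKM in WT libraries, where HET and WT overlapped. Among the largest falls were those of Rpl39l (-0.63), Rpl17 (-0.36), Rps27a (-0.27) and Rpl29 (-0.21). Rps27a, which encodes a fusion of ubiquitin with a small subunit protein, had 234 and 233 RPKM in KO, 285 and 279.7 RPKM in HET and 247 and 249 RPKM in WT libraries. For Rps27a, HET was highest and KO lowest. Rpl17 had 75.6 and 77.4 RPKM in KO, 103 and 93.9 RPKM in HET and 77.0 and 77.0 RPKM in WT libraries.

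The order of the 3 genotypes differed between genes. Counting genes whose libraries did not overlap between any neighbouring genotypes, 33 of the 83 (39.8%) stood in the order KO above HET above WT, against 22.7% of all genes tested. The reverse order, KO below HET below WT, was seen in 3 (3.61%; Rpl8, Rpl18 and Rps14), against 12.2% of all genes tested. HET lay above both other genotypes in 21 (25.3%), against 18.1%, and below both in 16 (19.3%), against 8.80%. The remaining 10 genes had overlapping libraries. The order KO above HET above WT was seen in 21 of 50 large (42%) and 12 of 33 small subunit genes (36.4%). HET above both others occurred in 10 of 50 large and 11 of 33 small subunit genes.

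The genes of the stalk moved in different directions. The acidic stalk consists of Rplp0, which anchors it, and Rplp1 and Rplp2, which bind translation factors. Rplp1 had 2181 and 2194 RPKM in KO, 1521 and 1544 RPKM in HET and 1781 and 1756 RPKM in WT libraries, so KO was highest and HET lowest. Its log2 difference was 0.31 ± 0.01 in KO against WT (adjusted p = 5.1e-07), -0.21 ± 0.01 in HET against WT (adjusted p = 6.8e-06) and 0.51 ± 0.01 in KO against HET (adjusted p = 2.0e-07). Rplp0 had 1266 and 1270 RPKM in KO, 1430 and 1454 RPKM in HET and 1420 and 1442 RPKM in WT libraries. Rplp0 fell in KO (-0.17 ± 0.01 against WT, adjusted p = 9.5e-06), while HET and WT overlapped (0.01 ± 0.01, adjusted p = 0.42). Rplp2 had 374.0 and 374.1 RPKM in KO, 359 and 359 RPKM in HET and 339 and 342 RPKM in WT libraries, a log2 difference of 0.13 in KO and 0.07 in HET to WT, the second of which changed sign with equal medians (-0.00128). The fall of Rplp0 was lost under quantile normalization, where the log2 difference of KO to WT was 0.01 (adjusted p = 0.21).

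Rpl5 and Rpl11 enter the large subunit as a particle with 5S ribosomal RNA and, when free, bind Mdm2, the ubiquitin ligase of p53. Rpl5 had 216 and 216 RPKM in KO, 157 and 159 RPKM in HET and 151 and 151 RPKM in WT libraries, a log2 difference of 0.51 ± 0.02 in KO (adjusted p = 3.4e-07) and 0.07 ± 0.02 in HET (adjusted p = 0.008) to WT. With libraries scaled to equal medians, the difference of Rpl5 in HET changed sign and was not called (-0.00751, adjusted p = 0.70). Rpl11 had 399 and 402 RPKM in KO, 380.1 and 382 RPKM in HET and 384 and 386 RPKM in WT libraries. The difference of KO to WT was 0.06 ± 0.01 for Rpl11 (adjusted p = 0.004), that of HET to WT -0.01 ± 0.01 (adjusted p = 0.34). The rise of Rpl11 in KO was not called, and had the opposite sign, when libraries were scaled to equal medians (-0.02, adjusted p = 0.13).

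Of the genes with mouse mutants of the skeleton, tail, pigment or growth (Rpl24, Rpl27a, Rpl38, Rps6, Rps7, Rps19 and Rps20), all 7 were called higher in KO than in WT, by log2 differences of 0.05 to 0.26, although 4 took the opposite sign with equal medians. Called higher in this comparison were 69.9% of the 83 ribosomal protein genes and 40.6% of all genes tested. The median of the 7 genes was 0.0652, near the 0.0590 over all genes tested. Rpl38, the gene of Tail short, had 411 and 403 RPKM in KO, 309 and 305 RPKM in HET and 373 and 373 RPKM in WT libraries. KO was highest and HET clearly lowest, and the log2 difference was 0.13 ± 0.01 in KO (adjusted p = 1.8e-04), -0.28 ± 0.01 in HET (adjusted p = 9.5e-06) and 0.40 ± 0.01 in KO against HET (adjusted p = 2.3e-06). Rpl27a, mutated in sooty foot ataxia mice, had 387 and 395 RPKM in KO, 337 and 336 RPKM in HET and 325 and 327 RPKM in WT libraries. Rpl24, mutated in Belly spot and tail mice, had a log2 difference of 0.07 in KO and 0.21 in HET, and Rps20, mutated in dark skin mice, 0.05 in KO and 0.26 in HET. Rps19, likewise a dark skin gene, had 0.06 in KO and -0.12 in HET, Rps7 0.13 and 0.06, and Rps6, the target of S6 kinase, 0.05 and 0.14. Of the same genes in HET against WT, 5 of the 7 rose and 2 (Rpl38 and Rps19) fell, but with equal medians Rpl27a (-0.0292) and Rps7 (-0.0130) took the opposite sign without a call. Of the 83 ribosomal protein genes, 62.7% rose and 20.5% fell in HET, against 35.5% and 17.1% of all genes tested. The call of Rpl27a in HET was lost when any 1 HET or WT library was left out, and that of Rps7 without HET replicate 2 or WT replicate 2. The 4 genes that took the opposite sign in KO against WT, without a call, under scaling to equal medians were Rpl24, Rps6, Rps19 and Rps20 (-0.01, -0.03, -0.02 and -0.03). The calls of these 4 in KO also depended on single libraries: that of Rpl24 was lost without KO replicate 1 or WT replicate 1, that of Rps6 without KO replicate 1, KO replicate 2 or WT replicate 2, that of Rps19 without KO replicate 2, and that of Rps20 without KO replicate 1, KO replicate 2 or WT replicate 1.

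Paralogs did not keep a fixed proportion to their partners. Rpl22, a large subunit protein, had 48.8 and 48.5 RPKM in KO, 45.5 and 44.3 RPKM in HET and 36.0 and 36.8 RPKM in WT libraries, whereas its paralog Rpl22l1 had 31.5 and 30.04 RPKM in KO, 34.1 and 37.1 RPKM in HET and 33.4 and 36.0 RPKM in WT libraries. Rpl22 rose in KO (0.41 ± 0.03, adjusted p = 1.0e-05) and Rpl22l1 fell (-0.17 ± 0.05, adjusted p = 0.023). The call of Rpl22l1 was lost after quantile normalization, with ribosomal protein genes left out of the sum, with no filter on low values, and without KO replicate 2 or WT replicate 2. Rpl22l1 stood at 64.6% and 61.9% of the Rpl22 level in KO, 74.9% and 83.8% in HET and 92.7% and 97.9% in WT libraries, with no overlap between genotypes. Rps27l, which p53 induces in human cells, stood at 113% and 113% of Rps27 in KO, 85.0% and 90.3% in HET and 97.7% and 95.4% in WT libraries. Rpl7l1 stood at 10.04% and 10.03% of Rpl7 in KO, 13.5% and 14.04% in HET and 14.4% and 13.4% in WT libraries. Rpl36al stood between 56.0% and 65.9% of Rpl36a in the 6 libraries, with KO and HET overlapping, and Rpl39l between 0.562% and 1.33% of Rpl39. Rps4y2 stood at 10.52% and 11.3% of Rps4x in KO, 6.27% and 7.11% in HET and 5.43% and 5.50% in WT libraries. Ratios between a gene and a paralog of like sequence depend on how shared reads were assigned.

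The 6 pseudogene rows that the rule left out show how far shared reads may reach. Rpl34-ps1 held between 1.418 and 1.423 times the RPKM of Rpl34 in every library, and its log2 difference of KO to WT, -0.33, was that of Rpl34, -0.34. Rpl31-ps12 held 2.54 to 2.65 times the RPKM of Rpl31, Rps15a-ps4 2.99 to 3.29 times and Rps15a-ps6 3.63 to 4.22 times that of Rps15a. The rows of Rpl34, Rpl31 and Rps15a and those of their copies may share reads, which was not tested. Rps19-ps3 ranged from 0.739 to 0.866 times Rps19 and Rplp2-ps1 from 0.766 to 0.857 times Rplp2. Rplp2-ps1 had a log2 difference of -0.02 in KO to WT, against 0.13 for Rplp2, and Rps19-ps3 one of 0.23, against 0.06 for Rps19.

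Of the ribosomal proteins whose symbols the rule did not match, Rpsa, Gnb2l1 and Fau fell in KO against WT. Rpsa, which also binds laminin, had 449 and 445 RPKM in KO, 459 and 462 RPKM in HET and 525 and 527 RPKM in WT libraries, a log2 difference of -0.23 ± 0.01 (adjusted p = 2.6e-06). Gnb2l1 (Rack1), a scaffold on the small subunit, fell by 0.13 and Fau, a ubiquitin-like fusion, fell by 0.18. In HET, Gnb2l1 rose (0.09) and Rpsa (-0.19) and Fau (-0.06) fell. Of 75 mitochondrial ribosomal protein genes tested, 25 rose and 21 fell in KO against WT (median 0.04), 23 rose and 14 fell in HET against WT (median 0.00401), and 19 rose and 23 fell in KO against HET (median -0.02). Called in all were 61.3%, 49.3% and 56.0% of the 75, near the 67.2%, 52.6% and 51.8% over all genes tested. Mrpl42 rose in KO (log2 difference 0.68 ± 0.04, adjusted p = 4.9e-06), as did Mrpl33 (0.40), and Mrpl54 fell (-0.32 ± 0.03, adjusted p = 3.2e-05).

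Genes that work around the ribosome moved in both directions, and their counts in KO against WT stand beside 67.2% called over all genes tested (40.6% higher, 26.6% lower; median 0.06). Among 10 tested translation elongation factors, 4 rose and 6 fell in KO against WT (100% called, median -0.09). Eef1a1, which brings aminoacyl-tRNA to the ribosome, had 3937 and 3931 RPKM in KO, 3218 and 3227 RPKM in HET and 3010 and 3017 RPKM in WT libraries, a log2 difference of 0.38 ± 0.00481 (adjusted p = 1.4e-08). Eif5a (-0.24) and Eef1g (-0.23) fell. Among 34 initiation factors, 17 rose and 12 fell (85.3% called, median 0.09), with Eif3a (0.68), the largest subunit of the eIF3 complex, and the poly(A) binding protein Pabpc1 (0.20) rising and Eif4h (-0.33) falling. Among 20 other mRNAs with a TOP tract, 12 rose and 7 fell (95% called, median 0.13). The lists overlap, so some genes are counted more than once. Eef1a1 is also among these 20, Npm1 is in this list and that of ribosome biogenesis, and the ribosomal protein gene Rpsa is among the 20 too. Npm1, a nucleolar chaperone, had 97.7 and 96.5 RPKM in KO, 68.4 and 68.8 RPKM in HET and 53.4 and 53.7 RPKM in WT libraries, a log2 difference of 0.85 ± 0.02 (adjusted p = 1.4e-07), and Hnrnpa1 rose by 0.79. Among 64 ribosome biogenesis genes, 26 rose and 19 fell (70.3% called, near the share over all genes, median 0.05), including nucleolin, Ncl (0.88), and Rrp9, a protein of the U3 particle (-0.69). Of 10 host genes of small nucleolar RNAs, 6 rose and 1 fell (70% called, 60% higher, median 0.32): Gas5 (1.09) and 1500012F01Rik (0.86) rose and Snhg6 (-0.37) fell.

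In HET against WT, elongation factors had 3 rises and 1 fall, initiation factors 16 and 6, other TOP mRNAs 11 and 4, biogenesis genes 20 and 8 and small nucleolar RNA hosts 7 and 0. The shares called were 40%, 64.7%, 75%, 43.8% and 70%, against 52.6% over all genes tested (35.5% higher, 17.1% lower). In KO against HET, the counts were 2 rises and 6 falls, 9 and 12, 8 and 10, 15 and 26, and 1 and 1, for the same lists in the same order, with 80%, 61.8%, 90%, 64.1% and 20% called, against 51.8% over all genes tested (26.4% higher, 25.4% lower). Among the other TOP mRNAs and the biogenesis genes the median of KO against HET was below 0 (-0.03 and -0.05), whereas that of the cytosolic ribosomal protein genes was 0.09.

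Regulators of ribosomal protein genes were listed too. Of 22 genes of mTOR signalling and TOP mRNA control, 11 rose and 4 fell in KO against WT (median 0.11), 11 and 3 in HET against WT, and 6 and 2 in KO against HET. The shares called, 68.2%, 63.6% and 36.4%, stand beside 67.2%, 52.6% and 51.8% over all genes tested. Eif4ebp1, the translation repressor that mTOR inactivates, had 112 and 114 RPKM in KO, 115 and 114 RPKM in HET and 142 and 145 RPKM in WT libraries (log2 difference of KO to WT -0.34), while Larp4 (0.76) and Pdcd4 (0.90), an inhibitor of eIF4A, rose. A list of 13 tested genes of the MYC network also counted Gabpa, which is an ETS factor. Of the 13, 9 rose and 2 fell in KO against WT (median 0.21). In HET against WT 6 rose and 1 fell, and in KO against HET 4 and 2, so 84.6%, 53.8% and 46.2% were called. Mxd3 (0.50) and Gabpa (0.67) rose in KO and Mycl1 (-0.62) fell. Myc itself had 40.4 and 41.2 RPKM in KO, 36.3 and 35.5 RPKM in HET and 35.4 and 33.7 RPKM in WT libraries. Of 17 genes of p53 and nucleolar stress, 9 rose and 4 fell in KO against WT (median 0.14), 11 and 3 in HET against WT, and 6 and 5 in KO against HET, so 76.5%, 82.4% and 64.7% were called. Trp53inp1 (1.11) and Ccng1 (0.61), both induced by p53, rose in KO, and Cdkn1a, the p53 target that encodes p21, fell to 249.96 and 253.15 RPKM in KO and 283 and 288 RPKM in HET libraries, against 315 and 316 RPKM in WT libraries.

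The size of the rise depended on how libraries were made comparable. In KO against WT the large subunit median was 0.16 as deposited, 0.17 after quantile normalization, 0.08 after scaling to equal medians, 0.19 after scaling to equal sums, 0.18 when the 50 most abundant genes and 0.22 when the ribosomal protein genes were left out of the sum. The small subunit median under the same scalings was 0.10, 0.10, 0.02, 0.14, 0.13 and 0.16. The median over all genes tested moved with them (0.06, -0.02, -0.02, 0.09, 0.08 and 0.11). Both subunit medians stayed above it under all 6 scalings, by 0.10 to 0.19 for the large and 0.04 to 0.12 for the small subunit. Scaling by medians or sums shifts all genes of a library nearly alike, so it could hardly change these distances. Only quantile normalization could, and it gave the upper end of both ranges (0.19 and 0.12). Calls moved too. Over all genes tested, 60.4% of the calls were higher in KO as deposited (4421 higher, 2903 lower), 46.7% after quantile normalization (3254 higher, 3712 lower) and 47.2% with equal medians (3479 higher, 3891 lower). With equal medians, 28 large subunit genes rose and 10 fell and 15 small subunit genes rose and 11 fell, so 67.2% of the member calls were higher, against 81.7% as deposited. With ribosomal protein genes left out of the sum, 39 large subunit genes rose and 5 fell and 25 small subunit genes rose and 4 fell.

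The dependence was stronger in HET against WT. The large subunit median was 0.09 as deposited, 0.18 after quantile normalization, 0.02 with equal medians, 0.14 with equal sums, 0.11 without the 50 most abundant genes and 0.15 without ribosomal protein genes in the sum. The small subunit median followed, at 0.08, 0.16, 0.00995, 0.13, 0.10 and 0.14. The median over all genes tested was 0.07, 0.00127, -0.00618, 0.11, 0.08 and 0.12 under the same scalings. The large subunit median thus stood 0.02 to 0.18 above it and the small subunit median 0.02 to 0.16. The upper ends, 0.18 and 0.16, were those of quantile normalization, the only scaling that could change these distances much. With equal medians, 20 large subunit genes rose and 15 fell, 14 small subunit genes rose and 11 fell, and 56.7% of the member calls were higher, against 75.4% as deposited. Over all genes tested, 67.5% of the calls were higher in HET as deposited (3865 higher, 1864 lower), 51.1% after quantile normalization (2397 higher, 2292 lower), 45.5% with equal medians (2371 higher, 2839 lower) and 77.6% without ribosomal protein genes in the sum (4979 higher, 1437 lower). In KO against HET the large subunit median was 0.10 as deposited and 0.03 after quantile normalization, and lay between 0.09 and 0.11 under the other scalings. The small subunit median lay between 0.06 and 0.08 under all 6.

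Single genes can be read against this. Called higher under all 6 scalings in KO against WT were 27 of 50 large subunit genes and 15 of 33 small subunit genes (42 of 83, 50.6%, against 25.5% of all genes tested). They included Rps24, Rpl30, Rpl7, Rpl36a, Rpl5, Rpl23a, Rpl38, Rplp1, Rplp2, Rps26 and Rpl41. Called lower under all 6 were 8 genes (9.64%, against 20.6% of all genes tested), 4 of each subunit, among them Rpl8, Rpl13a, Rpl18, Rpl34, Rps3, Rps9 and Rps14. Called higher under at least 1 scaling and lower under another were 7 genes (8.43%, against 0.661% of all genes tested), among them Rpl10, Rpl15, Rpl27, Rps13, Rps15 and Rps28. In HET against WT, 34 of the 83 were higher and 13 lower under all 6 scalings, against 18.0% and 12.9% of all genes tested. In KO against HET these counts were 43 and 23, against 21.5% and 21.7%. None of these shares was taken over the other abundant genes, which were called more often than all genes tested in each comparison. The part of expression level in them was not tested.

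**Figure D4:**
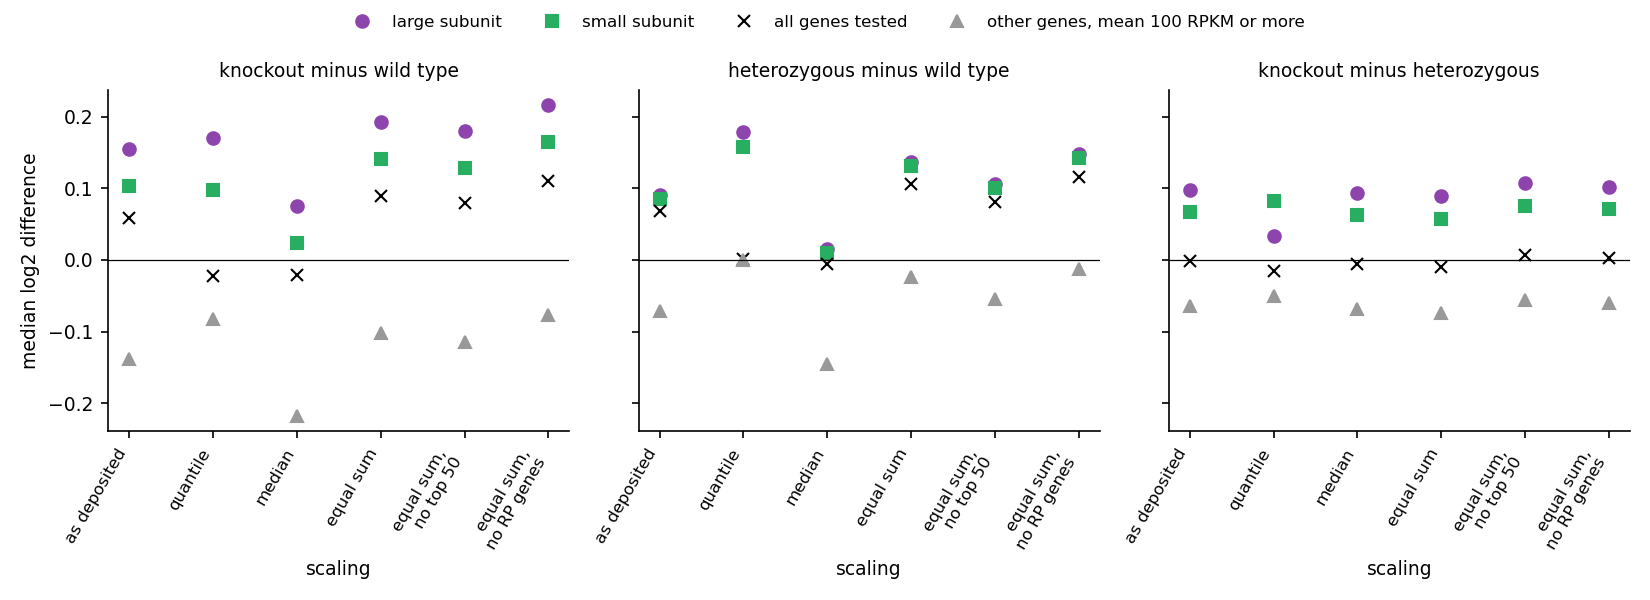
Median log2 difference of large subunit genes, small subunit genes, all genes tested and the other 352 genes with at least 100 RPKM, in the 3 comparisons, under the deposited scale and 5 other scalings. In KO minus WT both subunit medians lie above that of all genes under every scaling shown, and are lowest with equal medians (0.08 and 0.02). Scaling by medians or sums shifts all genes of a library nearly alike, so only quantile normalization could change that distance much. In HET minus WT they are near 0 with equal medians (0.02 and 0.00995).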

How the data were processed

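Polyadenylated RNA of 6 libraries was sequenced from strand-marking dUTP libraries, per the labels' protocols. The submitters' processing notes name TopHat and the mm9 build. The authors deposited 1 value per gene symbol and library, with no unit named. The deposited values behaved as RPKM: read steps were recovered when a read was taken as 74 bases, with 114 of 120 low values whole within 0.01 reads, and gave the depths and gene lengths. Between 47.5% and 48.8% of the read equivalents lay in gene rows. No source used here states how multiply matching reads were assigned or if strand entered the counting. Values were taken as log2(RPKM + 1), which understates changes of low genes, for the 10897 genes reaching 1 RPKM in 2 or more libraries. In R 4.3.3, limma 3.58.1 (eBayes with an intensity trend, two-sided) estimated 3 group means with 3 residual degrees of freedom. Adjusted p-values are Benjamini-Hochberg over all genes tested, with a threshold of 0.05, and the fit was tested on simulated data. Errors are SD between libraries for levels and model SE for log2 differences. Alternatives were 5 other scalings, other pseudocounts and filters, no trend, a replicate block, no paralogs and leaving out each library. Genes were named by rule: the 5 highest and lowest members, the 5 largest called rises and falls per comparison, stalk, 5S particle, mouse mutant and paralog genes, members not tested, and up to 3 genes per companion list by smallest p. Other members are named only where a count is spelled out or, as Rpl15 and the examples of stable calls, were chosen after their values were seen. Members and lists were chosen with earlier results of these data known. Some genes that the rule names are not reported here.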

Additional observations from a re-analysis of the deposited data

How the results depend on the processing

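Medians below are log2 differences. In KO against WT the large subunit median of 0.155 became 0.170 with quantile normalization, 0.0758 with equal medians, 0.192 with equal sums, 0.180 without the 50 most abundant genes, 0.216 without ribosomal protein genes in the sum and 0.172 without paralogs. The small subunit median of 0.103 became 0.0240 with equal medians, 0.141 with equal sums and 0.165 without ribosomal protein genes in the sum. Falls numbered 21 instead of 13 with equal medians. In HET against WT the large subunit median of 0.0900 became 0.178 with quantile normalization, 0.0151 with equal medians, 0.137 with equal sums, 0.106 without the 50 most abundant genes, 0.148 without ribosomal protein genes in the sum, 0.0779 with no filter, 0.0796 with a filter at 5 RPKM and 0.0779 without paralogs. The small subunit median of 0.0848 became 0.158 with quantile normalization, 0.00995 with equal medians, 0.131 with equal sums and 0.142 without ribosomal protein genes in the sum. With equal medians, 34 genes rose and 26 fell in HET, instead of 52 and 17. In KO against HET the large subunit median of 0.0982 became 0.0334 with quantile normalization, 0.0867 with no filter and 0.110 without paralogs. Under the settings that kept all 6 libraries, the other counts stayed within 1.5 times and the other medians within the spread between libraries.

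Leaving out 1 library at a time, KO against WT had 53 to 58 rises and 11 to 13 falls, with medians of 0.148 to 0.178 (large) and 0.0727 to 0.113 (small). HET against WT had 47 to 51 rises and 15 to 16 falls, with medians of 0.0777 to 0.0919 and 0.0756 to 0.110. KO against HET had 46 to 50 rises and 21 to 25 falls, with medians of 0.0916 to 0.106 and 0.0619 to 0.0846. Medians moved by more than that spread for large subunit genes in KO against WT without KO replicate 1, WT replicate 1 or WT replicate 2, for small subunit genes in KO against WT without WT replicate 2, and for large subunit genes in HET against WT without WT replicate 1. Without the intensity trend, calls numbered 47 rises and 10 falls, 36 and 13, and 39 and 18 in the 3 comparisons.

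Over the members named by rule, 2109 values under alternatives kept direction and call, 68 lost the call, 23 gained it and 41 changed sign. Part of the 2109 could not change direction. No trend, the replicate block and leaving out a library of the genotype not compared leave the log2 difference as it was, and can change the call only. In KO against WT, quantile normalization turned Rpl17 (0.0663), Rpl39l (-0.154), Rplp0 (0.00922) and Rps15 (-0.0949). Equal medians turned Rpl11 (-0.0236), Rpl24 (-0.0142), Rpl39l (-0.0344), Rps15 (-0.0744), Rps19 (-0.0190), Rps20 (-0.0257) and Rps6 (-0.0343). Equal sums turned Rpl10 (0.00265) and Rpl17 (0.0278), leaving out the 50 most abundant genes turned Rpl17 (0.0154), and leaving out ribosomal protein genes turned Rpl10 (0.0269) and Rpl17 (0.0518). In HET against WT, quantile normalization turned Rpl11 (0.0342). Equal medians turned Rpl22l1 (-0.0393), Rpl27a (-0.0292), Rpl35a (-0.0723), Rpl41 (-0.0570), Rpl5 (-0.00751), Rplp0 (-0.0638), Rplp2 (-0.00128) and Rps7 (-0.0130). Rpl11 turned with equal sums (0.0323), without the 50 most abundant genes (0.00145) and without ribosomal protein genes in the sum (0.0432). In KO against HET, quantile normalization turned Rpl13a (-0.00627) and Rplp2 (-0.0310). Leaving out 1 library turned genes that were not called: in KO against WT, Rpl17 (-0.0256 without KO replicate 2 to 0.00783 without KO replicate 1), Rpl39l (-0.0934 without WT replicate 1 to 0.184 without WT replicate 2) and Rps15 (-0.0245 without WT replicate 1 to 0.0347 without WT replicate 2). In HET against WT these were Rpl21 (-0.576 without WT replicate 2 to 1.09 without WT replicate 1), Rpl22l1 (-0.0247 without HET replicate 2 to 0.0959 without HET replicate 1), Rpl35a (-0.0217 without HET replicate 2 to 0.0269 without HET replicate 1) and Rplp0 (-0.000955 without HET replicate 2 to 0.0232 without HET replicate 1). The cause of these changes was not tested.

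Libraries with the same number did not deviate together: correlations of deviations were 0.0648 for KO and HET, -0.0620 for KO and WT and -0.0882 for HET and WT. With the replicate block, 57 members rose and 13 fell in KO against WT, 52 and 18 in HET against WT, and 50 and 25 in KO against HET. The block ended the call of Rpl24 in KO against WT. Depth limits mainly the lowest members, such as Rpl39l at 2.56 to 6.06 RPKM.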
